A study of Mus musculus with 6 samples.

Results

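The contractile and serum response factor (SRF) target genes described here are 36 genes of the actin and myosin apparatus, its regulators, and the transcription factors that drive it, together with a few targets of YAP and TAZ. They were listed by symbol, with earlier results of these data known. Each was read from the array probe set that carries its symbol alone, and where a gene had several, from the one with the highest mean. Of the 36, 35 were measured, among 21996 named genes in all. Expression of Rock2, a kinase gene, was not analysed here.

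Transcript levels were read with biotin-labelled Affymetrix arrays, 1 per replicate, in adipocytes made from C3H10T1/2, a mouse mesenchymal cell line. Cultures labelled Zc3h10 shRNA (3 biological replicates) received an adenovirus with a short hairpin RNA against Zc3h10, a CCCH zinc finger gene. Cultures labelled scramble (3 biological replicates) received an adenovirus with a scrambled hairpin. The labels give 9 days of differentiation, a multiplicity of infection of 50 and a 72 h exposure for both groups, and name a U6 promoter for the Zc3h10 hairpin. When the exposure fell within the differentiation is not stated in the labels. The model rests on 1 hairpin against Zc3h10 in 1 cell line, and both groups carried virus. Nothing in the labels says whether the replicates came from separate differentiations, so the p-values measure the spread between these samples.

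In smooth muscle cells and stress fibre-bearing fibroblasts, contraction comes from myosin II filaments pulling on actin filaments. SRF binds a DNA motif called the CArG box at many genes of this machinery. Its cofactors of the myocardin family include MRTF-A and MRTF-B, which bind monomeric actin and enter the nucleus when actin polymerises. YAP and TAZ (the product of Wwtr1) respond to the same cytoskeletal tension and act through TEAD factors at genes such as Ccn1, Ccn2 and Ankrd1. Mesenchymal cells lose stress fibres as they turn into adipocytes, and active MRTF and YAP or TAZ are known to restrain that step.

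The promoter windows of 5 members are printed first because they hold the motifs of the 2 factor families, in 3 members that rose most clearly among those with a window (Myl9, Cnn2 and Ccn1), in Acta2, and in Srf itself, which did not pass the test. Each runs from 250 bases before the annotated start to 50 bases after it, 5′ to 3′ on the gene's strand, from RefSeq on build GRCm38.p6. Capitals mark an exact CArG box or the TEAD core GGAATG on either strand.
Myl9, chr2:156775214-156775513, plus strand: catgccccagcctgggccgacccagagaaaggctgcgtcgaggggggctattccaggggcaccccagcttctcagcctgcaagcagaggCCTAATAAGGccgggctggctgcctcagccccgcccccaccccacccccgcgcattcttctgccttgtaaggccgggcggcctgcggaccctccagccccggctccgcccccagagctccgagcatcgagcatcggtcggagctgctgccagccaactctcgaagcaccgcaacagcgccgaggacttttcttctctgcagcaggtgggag
Cnn2, chr10:79988350-79988649, plus strand: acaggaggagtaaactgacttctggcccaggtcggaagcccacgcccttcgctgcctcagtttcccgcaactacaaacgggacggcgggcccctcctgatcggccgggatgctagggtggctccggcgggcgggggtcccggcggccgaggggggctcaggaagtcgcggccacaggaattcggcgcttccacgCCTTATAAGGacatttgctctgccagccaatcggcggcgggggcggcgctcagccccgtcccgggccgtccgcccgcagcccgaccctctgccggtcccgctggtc
Ccn1, chr3:145649936-145650235, minus strand: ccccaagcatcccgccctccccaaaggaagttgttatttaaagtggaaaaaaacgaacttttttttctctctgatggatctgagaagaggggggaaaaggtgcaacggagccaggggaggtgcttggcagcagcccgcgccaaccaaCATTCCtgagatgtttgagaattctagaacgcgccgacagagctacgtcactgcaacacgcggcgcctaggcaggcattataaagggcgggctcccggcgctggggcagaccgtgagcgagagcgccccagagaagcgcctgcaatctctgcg
Acta2, chr19:34255324-34255623, minus strand: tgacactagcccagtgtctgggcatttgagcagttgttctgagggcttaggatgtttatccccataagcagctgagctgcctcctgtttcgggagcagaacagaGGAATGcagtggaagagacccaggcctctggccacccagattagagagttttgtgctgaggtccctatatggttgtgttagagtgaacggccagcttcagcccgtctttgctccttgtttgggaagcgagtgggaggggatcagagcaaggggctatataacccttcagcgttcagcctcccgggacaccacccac
Srf, chr17:46556113-46556412, minus strand: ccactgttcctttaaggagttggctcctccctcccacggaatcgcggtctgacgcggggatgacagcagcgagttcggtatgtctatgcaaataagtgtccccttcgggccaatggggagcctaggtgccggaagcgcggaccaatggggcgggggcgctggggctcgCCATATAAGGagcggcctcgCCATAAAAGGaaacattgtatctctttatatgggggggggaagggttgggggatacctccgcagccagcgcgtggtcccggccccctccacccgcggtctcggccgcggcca

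The CArG box lay 161 bases before the start of Myl9 and 56 bases before that of Cnn2, and Srf held a pair at 82 and 62 bases. The GGAATG core lay 103 bases before the start of Ccn1, on the opposite strand, and 146 bases before that of Acta2. The Acta2 window held no exact CArG box, but it holds the near matches ccctatatgg and ccttgtttgg, which are not marked. Near matches were not counted in any window, so the shares below are for exact boxes alone. Windows were found for 28 of the 36 members, with no entry for Tagln, Actg2, Myh11, Csrp2, Myocd, Ccn2, Tead1 and Rock1. An exact CArG box was in 5 of the 28 (17.9%), against 488 of 27025 genes with a window (1.81%). GGAATG was in 12 of the 28 (42.9%), against 16.6% of all genes. Among members with a window, 2 of the 12 that rose held a CArG box (16.7%), beside 3 of the 15 other measured members. GGAATG was in 4 of those 12 (33.3%) and in 8 of the 15 (53.3%). The members were listed partly as known SRF or TEAD targets, so these shares are a description, and a match is not a measured binding site.

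The 6 arrays had median intensities of 15.6 to 16.1 units, and the number of arrays limits the precision of every value. The targeted transcript, Zc3h10, had 25.2, 30.2 and 22.9 units on shRNA arrays, against 25.9, 39.0 and 35.3 on scramble arrays. The groups overlapped, and its change of −0.34 ± 0.17 did not pass (adjusted p = 0.301); a lower level was thus not detectable at this spread.

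Many of the genes that build contractile filaments were higher in the adipocytes given the Zc3h10 hairpin, while none of the 5 transcription factor and cofactor genes among the members (Srf, Myocd, Yap1, Wwtr1 and Tead1) passed the test. Of the 35 measured members, 14 rose and 0 fell (40.0% higher). Over all 21996 named genes, 5.51% rose and 6.60% fell at the same threshold, a limma adjusted p under 0.05. The median log2 change of the members was 0.36, Zc3h10 shRNA minus scramble, beside 0.01 over all named genes. Changes ran between −0.28 for Myl6 and 1.01 for Tagln, and 31 of 35 were above 0. The 3 shRNA arrays all lay above the 3 scramble arrays for 23 members (65.7%), against 16.7% of named genes, and all below for 0 members, against 15.2%. The members were listed with earlier results of these data known, so the direction of these counts is no independent evidence. Without scramble replicate 3 or without shRNA replicate 3, 9 members rose. Both groups of Actc1, Cnn1, Myocd and Ankrd1 lay under a mean log2 of 4.37, taken here as background. That level is the upper end of the middle 95% of 1375 odorant and pheromone receptor genes. At an adjusted p under 0.05, 1148 of the 11746 named genes above that level in at least 1 group rose, and 1398 fell.

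**Figure D1:**
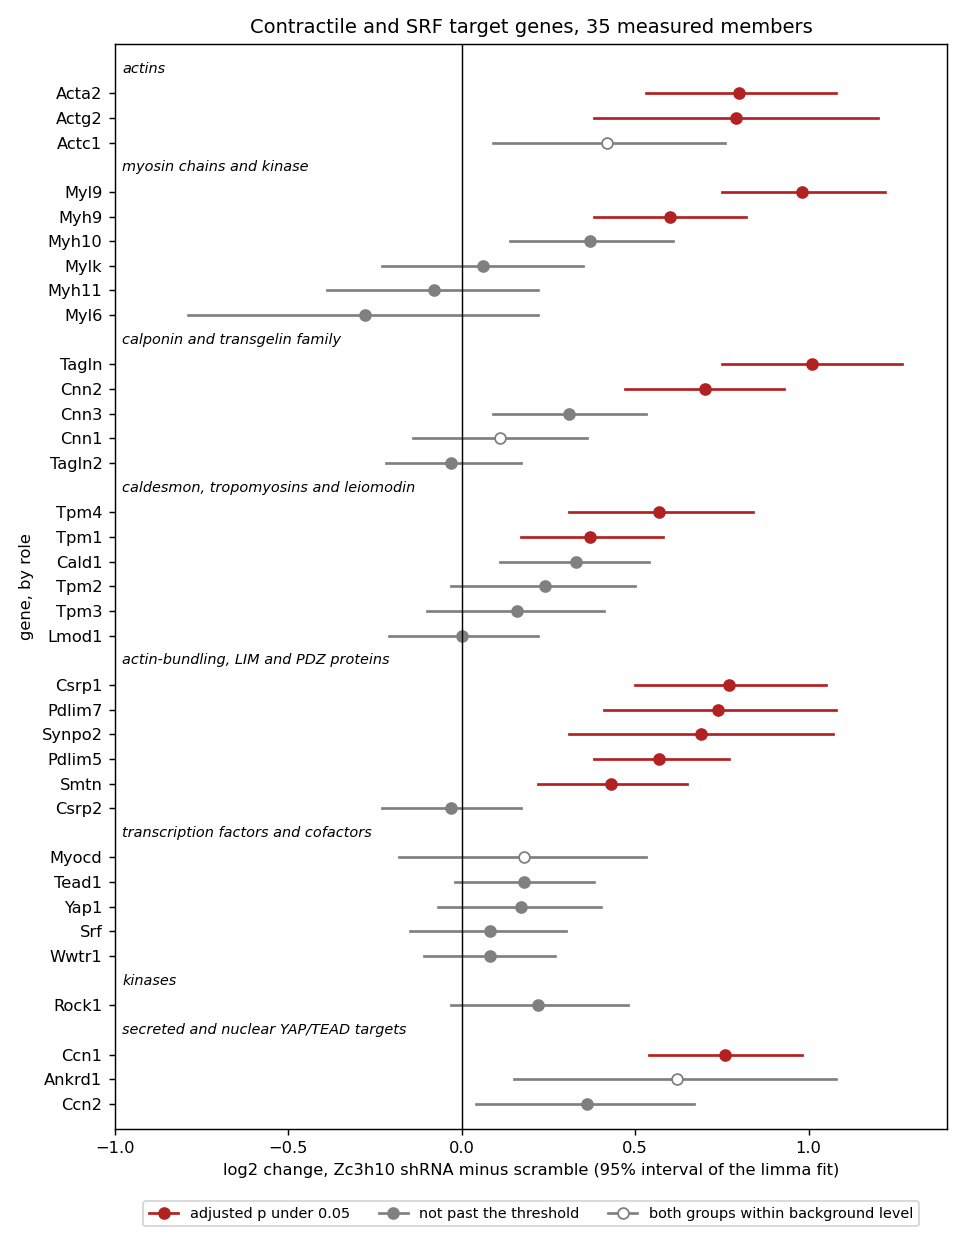
Log2 change of each of the 35 measured members, Zc3h10 shRNA minus scramble (x axis, log2 units), grouped by role. Points are limma estimates, lines their 95% intervals, red the 14 members with an adjusted p under 0.05, and open circles the 4 members with both groups within background. The red points run from Tpm1 at 0.37 to Tagln at 1.01, and the transcription factors lie between 0.08 and 0.18.

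The smooth muscle actins rose. Acta2, the α actin of smooth muscle and myofibroblasts, had intensities of 2608, 2343 and 2399.5 units on Zc3h10 shRNA arrays 1 to 3, against 1537, 1190.4 and 1503 on scramble arrays 1 to 3. The lowest shRNA array was far above the highest scramble array, and the log2 change was 0.80 ± 0.12 (SE; 1.75-fold, adjusted p = 0.00518). Actg2, the γ actin of visceral smooth muscle, had 43.3, 40.4 and 35.9 units on shRNA arrays, against 21.7, 30.3 and 18.5 on scramble arrays. The groups did not overlap, and the change was 0.79 ± 0.18 (adjusted p = 0.0290). Its scramble values lay near the limit taken here as background, 20.7 units, and replicate 3 was below it. The Actg2 call was kept without scramble replicate 2 and lost when any other array was left out (adjusted p 0.0618 to 0.0899). Actc1, the cardiac actin, read 10.6, 12.2 and 10.2 units on shRNA arrays and 8.99, 9.26 and 6.62 on scramble arrays, within background, and did not pass (0.42 ± 0.15, adjusted p = 0.128). Actin genes are close in sequence, so their probe sets can share transcripts.

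Of 6 myosin chains and kinase genes, 2 rose. Myl9, the regulatory light chain that myosin light chain kinase acts upon, had 991, 959 and 962 units in shRNA cultures, against 541, 437 and 500.0 in scramble cultures. The change was 0.98 ± 0.10 (1.98-fold, adjusted p = 0.00126). Myh9, the heavy chain of non-muscle myosin IIA, had 1783, 1897 and 1910.1 units in shRNA cultures, against 1313, 1124 and 1252 in scramble cultures (0.60 ± 0.10, adjusted p = 0.00645). Neither gene had overlapping groups. Myh10, the heavy chain of myosin IIB, had 325, 325 and 322 units with the hairpin and 262, 221 and 270.4 with scramble. It was higher on every shRNA array and just missed the threshold (0.37 ± 0.10, adjusted p = 0.0601); 5 alternative settings gave an adjusted p of 0.0120 to 0.0488. Myh11, the heavy chain that marks differentiated smooth muscle, had 28.4, 31.8 and 28.9 units on shRNA arrays and 28.1, 28.8 and 38.2 on scramble arrays, with overlapping groups (−0.08 ± 0.13, 95% interval −0.39 to 0.22). The kinase gene Mylk (0.06, interval −0.23 to 0.35) and the essential light chain gene Myl6 (−0.28, interval −0.79 to 0.22) did not pass. Myl6 had the widest interval of the members: shRNA replicate 2 read 47.2 units, below the 83.5 and 74.3 of the other shRNA arrays.

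In the calponin and transgelin family, which bind along actin filaments, 2 of 5 genes rose. Tagln (transgelin, SM22α) had 104, 86.3 and 87.3 units in shRNA cultures, against 50.4, 43.5 and 43.8 in scramble cultures. That was the largest change of all members, 1.01 ± 0.11 (2.02-fold, adjusted p = 0.00160). Its paralog Tagln2 had 189, 196 and 189 units with the hairpin and 202, 187 and 197 with scramble, so the groups overlapped (−0.03, interval −0.22 to 0.17). Cnn2, the calponin of non-muscle cells, had 1322, 1399.7 and 1469.7 units on shRNA arrays, against 947, 799 and 844 on scramble arrays (0.70 ± 0.10, adjusted p = 0.00431). Cnn3, the acidic calponin, was higher on every shRNA array (2014, 1992 and 2182 units) than on any scramble array (1766, 1536 and 1708) and did not pass (0.31 ± 0.10, adjusted p = 0.0933). It passed with the offset, with dim probe sets under the median left out, and with the intensity trend (adjusted p 0.00834 to 0.0326). Cnn1, the calponin restricted mostly to smooth muscle, lay within background at 16.9 to 19.2 units on shRNA arrays and 15.6 to 18.9 on scramble arrays.

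Tropomyosins, which lie along the actin filament and set which proteins reach it, were split. Tpm4 had 953, 829 and 1050.0 units in shRNA cultures, against 676, 582 and 638 in scramble cultures (0.57 ± 0.11, adjusted p = 0.0176). Its other probe set, at 138, 184 and 176 units with the hairpin and 130.3, 123 and 119 with scramble, moved the same way and did not pass (0.41, adjusted p = 0.0843). Tpm1 had 187, 189.8 and 197 units with the hairpin, against 158, 145 and 139.9 with scramble, the smallest change that passed (0.37 ± 0.09, adjusted p = 0.0369). The Tpm4 call was kept without scramble replicate 1 or shRNA replicate 2 and lost without each of the other 4 arrays (adjusted p 0.0525 to 0.0726). The Tpm1 call was kept without scramble replicate 1 and lost without each of the other 5 (0.0715 to 0.124). Tpm1 was also lost with equal array medians (adjusted p = 0.0504). Tpm2 (0.24 ± 0.12, adjusted p = 0.293) and Tpm3 (0.16 ± 0.11, adjusted p = 0.490) did not pass, and both had overlapping groups. Cald1, caldesmon, which restrains myosin on actin, had 459 to 494 units on shRNA arrays and 356 to 410.3 on scramble arrays. The groups were apart, but the change of 0.33 ± 0.09 missed the threshold (adjusted p = 0.0677) and passed in 5 alternative settings (0.00989 to 0.0476). Lmod1, leiomodin, an actin filament nucleator of smooth muscle, averaged 106 units in both groups (0.00, interval −0.21 to 0.22).

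The genes of actin-bundling, LIM and PDZ proteins rose in 5 of 6 cases. Csrp1, a LIM protein of actin bundles, had 881, 884 and 970.1 units in shRNA cultures, against 602, 459.5 and 545 in scramble cultures (0.77 ± 0.12, 1.71-fold, adjusted p = 0.00554). Its paralog Csrp2 had 194, 195 and 207 units with the hairpin and 198, 215 and 195 with scramble, with overlapping groups (−0.03, interval −0.23 to 0.17). Pdlim5 and Pdlim7 encode PDZ and LIM adaptors of the Enigma family that dock on actin through α-actinin or tropomyosin. Pdlim5 had 342, 363 and 362 units on shRNA arrays, against 246, 241 and 231 on scramble arrays (0.57 ± 0.08, adjusted p = 0.00495), with little spread in either group. Pdlim7 had 127, 100.1 and 118 units with the hairpin, against 70.6, 57.3 and 79.5 with scramble (0.74 ± 0.14, adjusted p = 0.0160). Synpo2, synaptopodin-2, an actin bundler of muscle, had 48.1, 61.7 and 60.2 units with the hairpin, against 35.1, 42.5 and 28.5 with scramble (0.69 ± 0.16, adjusted p = 0.0347). Smtn, smoothelin, a stress fibre protein of contractile smooth muscle, had 224, 221 and 202 units with the hairpin, against 169, 160.3 and 149.7 with scramble (0.43 ± 0.09, adjusted p = 0.0246). The groups did not overlap for any of these 5. With 1 array left out, Pdlim7 was lost without scramble replicate 2 or shRNA replicate 1 or 3 (adjusted p 0.0503 to 0.0646). Synpo2 was lost without scramble replicate 1 or 3 or shRNA replicate 2 or 3 (0.0878 to 0.119). Smtn was lost without scramble replicate 2 or 3 or shRNA replicate 1 or 2 (0.0708 to 0.0906). It was also lost with the mean of its probe sets (0.38, adjusted p = 0.0827), and its other probe set, within background, did not pass (0.32, adjusted p = 0.274).

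**Figure D2:**
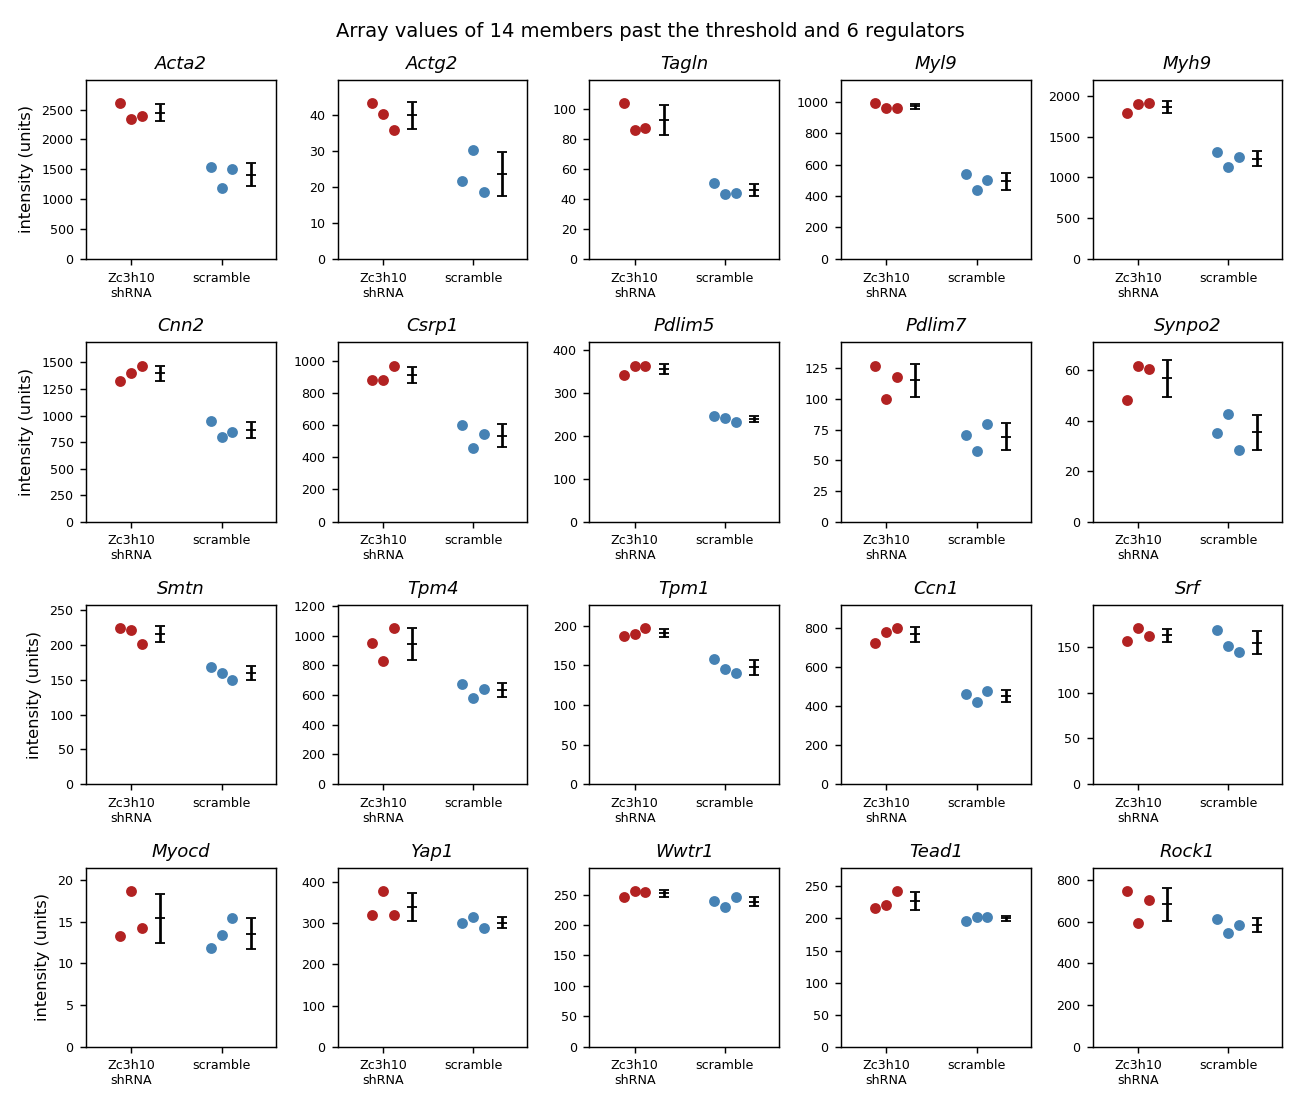
Intensity on each array (y axis, linear units starting at 0) of the 14 members past the threshold and of Srf, Myocd, Yap1, Wwtr1, Tead1 and Rock1, with Zc3h10 shRNA in red at left and scramble in blue at right. Dots are arrays 1 to 3 from left to right, and the bar beside them is the mean ± SD (n = 3). The groups do not overlap in the first 14 panels, and they overlap for Srf, Myocd and Rock1.

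Of the 3 matricellular and nuclear genes known as YAP and TEAD targets, Ccn1 rose. Ccn1 (Cyr61), a secreted protein that binds integrins, had 725, 778 and 798 units in shRNA cultures, against 462, 419 and 479 in scramble cultures (0.76 ± 0.09, 1.69-fold, adjusted p = 0.00238). Ccn2 (Ctgf, connective tissue growth factor) had 125, 86.8 and 109.6 units with the hairpin and 83.5, 78.3 and 86.4 with scramble. Its groups were barely apart, and it did not pass (0.36 ± 0.14, adjusted p = 0.175) except without shRNA replicate 2 (0.50, adjusted p = 0.0469). Ankrd1, a nuclear ankyrin repeat cofactor, lay within background at 12.5, 20.2 and 22.5 units with the hairpin and 11.7, 11.5 and 11.7 with scramble. Its change of 0.62 ± 0.20 did not pass (adjusted p = 0.107) except without shRNA replicate 1 (0.87, adjusted p = 0.00419).

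None of the 5 transcription factors and cofactors among the members passed the test at the RNA level, nor did the kinase gene Rock1. Srf had 156, 170.4 and 162 units in shRNA cultures and 169, 151 and 144 in scramble cultures, with overlapping groups (0.08 ± 0.10, interval −0.15 to 0.30, adjusted p = 0.731). Myocd, the myocardin cofactor of cardiac and smooth muscle, had 13.3, 18.7 and 14.2 units with the hairpin and 11.8, 13.4 and 15.5 with scramble, within background. Tead1 had 217, 221 and 243 units with the hairpin and 196, 202 and 202 with scramble (0.18 ± 0.09, interval −0.02 to 0.38, adjusted p = 0.293). Yap1 had 319, 378 and 319 units with the hairpin and 301, 314 and 288 with scramble (0.17 ± 0.10, interval −0.07 to 0.40). Wwtr1 had 246, 256 and 254 units with the hairpin and 239, 230.3 and 246 with scramble (0.08 ± 0.08, interval −0.11 to 0.27). The groups of Tead1, Yap1 and Wwtr1 were apart, with the shRNA arrays higher, for Wwtr1 by less than the rounding shown. Rock1 had 748, 596 and 706 units with the hairpin and 615, 548 and 585 with scramble, with overlapping groups (0.22 ± 0.11, interval −0.03 to 0.48, adjusted p = 0.300). Transcript levels do not report the nuclear entry or phosphorylation through which these proteins are regulated.

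Within protein families, the difference between the log2 changes of members was tested over the 6 arrays in 13 pairs chosen after their values were seen. The two-sided exact permutation test cannot go below p = 0.1 with 3 against 3 arrays, so no pair could pass. Tagln changed by 1.04 ± 0.11 more than Tagln2, Csrp1 by 0.80 ± 0.16 more than Csrp2 and Myl9 by 1.27 ± 0.25 more than Myl6, each with no overlap between groups (exact permutation p = 0.1, adjusted p = 0.13 over the 13 pairs). Cnn2 changed by 0.39 ± 0.04 more than Cnn3, and Myh9 by 0.23 ± 0.05 more than Myh10 and by 0.68 ± 0.15 more than Myh11, with the same exact p. Acta2 and Actg2 differed by 0.02 ± 0.33 (exact permutation p = 1), and Pdlim7 and Pdlim5 by 0.17 ± 0.20 (exact permutation p = 0.5). The groups did not overlap in 10 of the 13 pairs. That count has no share over other gene pairs beside it, and the choice of pairs favours it, so it is a description alone.

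The arm of SRF that works with ternary complex factors at immediate early genes was read from 13 measured genes, Elk1, Elk3 and Elk4 included. Of these 13, 0 rose and 3 fell (median 0.07), beside 5.51% and 6.60% of all named genes. The changes of 8 of the 13 were above 0. The shRNA arrays all lay above the scramble arrays for 4 genes (30.8%), against 16.7% of all named genes. The shRNA arrays all lay below for 3 genes, against 15.2% of all named genes. The survival gene Mcl1 had 351, 323 and 369 units in shRNA cultures, against 508, 553 and 519.8 in scramble cultures (−0.60 ± 0.09, adjusted p = 0.00585). The orphan nuclear receptor gene Nr4a1 (−0.55, adjusted p = 0.0115) and the ternary complex factor gene Elk4 (−0.62, adjusted p = 0.0140) fell too. Egr1 (0.07 ± 0.09, adjusted p = 0.720) and Fos (0.33 ± 0.11, adjusted p = 0.127) did not pass. Without scramble replicate 2, 1 gene fell. That this arm differs from the contractile genes was not tested.

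Of 24 measured genes of the Hippo pathway and of YAP and TEAD outside the members, 8 rose and 0 fell (median 0.18). Thus 33.3% rose, against 5.51% of all named genes and 1148 of the 11746 named genes above background in at least 1 group. None of the 24 lay within background in both groups, and 8 of the 24 changes were below 0. The Hippo pathway genes Lats2 (0.34), Mob1b (0.50) and Amotl2 (0.40) were among the 8. The other 16 did not pass, F3 (−0.19), Nuak2 (0.32) and Arhgap29 (0.13) among them. The list mixes pathway genes with target genes, and YAP or TEAD activity was not tested. Vgll3, a TEAD cofactor, had 461, 491 and 521 units in shRNA cultures, against 243, 240 and 230.1 in scramble cultures (1.04 ± 0.09, adjusted p = 0.000727). Crim1 (1.02, adjusted p = 0.000727), the receptor kinase gene Axl (0.67, adjusted p = 0.00250) and the LIM adaptor gene Ajuba (0.79, adjusted p = 0.00455) followed. Tead2, which encodes a TEAD transcription factor, was also among the 8, with 102, 123 and 105 units in shRNA cultures, against 54.7, 63.4 and 68.8 in scramble cultures (0.82 ± 0.12, adjusted p = 0.00495). Its groups did not overlap. Without any 1 array the count was 6.

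Among markers of muscle and mural cells, some rose, some fell, and many lay within background or did not pass the test. At the same threshold, 5.51% of all named genes rose and 6.60% fell. Of 19 other smooth muscle and pericyte markers, 4 rose and 4 fell (median 0.11), and 8 lay within background in both groups, Kcnmb1, Pln and Casq2 among them. Notch3 (1.13) and Mustn1 (1.02) rose, while Mcam (−1.65) and Rgs5 (−0.86, within background) fell, all at adjusted p of 0.000697 to 0.00285. Just 2 of them fell when any array other than shRNA replicate 1 was left out. Of 20 skeletal and cardiac muscle markers, 1 rose, Myh8, from within background (0.37, adjusted p = 0.0458), and 0 rose with any 1 array left out or under any of the other alternative settings run for this list. Of those 20, 13 were within background, Myod1, Ckm and Ttn among them, and their summed intensity was 367 to 412 units on shRNA arrays and 373 to 384 on scramble arrays. Of 10 endothelial and macrophage markers, 0 rose and 0 fell, and 9 were within background (summed 147 to 161 units on shRNA arrays and 153 to 162 on scramble arrays).

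Adipocyte markers fell in the same cultures. Of 18 measured, 17 fell and 0 rose (median −1.06), and their summed intensity was 18929 to 20672 units on shRNA arrays, against 34772 to 38212 on scramble arrays. The share of all named genes, for this and the lists below, was 6.60% that fell and 5.51% that rose. Fabp4, the fatty acid carrier of fat cells, had 4481, 4189.8 and 4719 units with the hairpin, against 6567, 7227 and 7399 with scramble. Lep, the leptin gene, lay within background in both groups. The samples include no undifferentiated culture, so the labelled cell type was not tested. The adipocyte markers with the smallest p were Plin4 (−1.34), Plin1 (−1.16) and Aqp7 (−1.70), each at adjusted p = 0.000658, and Pck1 (−1.51, adjusted p = 0.000660). Of 19 progenitor and fibroblast markers, 5 rose and 1 fell (median −0.03), with Fap (1.63), Fn1 (1.20) and Prrx1 (0.80) the first by p. Fap lay within background in the scramble group. Pdgfra, a receptor gene of mesenchymal progenitors, was the 1 that fell (−0.66), and 11 of the 19 changes were below 0. The summed intensity of the 19 was 19734 to 20299 units on shRNA arrays and 14264 to 16709 on scramble arrays. Fn1, fibronectin, averaged 6636 units with the hairpin and 2903 with scramble, the largest part of that gap, and Prrx1 averaged 2099 and 1205. Of 9 bone and cartilage markers, 0 rose and 3 fell, or 1 without scramble replicate 3. Of 11 proliferation genes, 7 rose, led by Mki67 (1.05), and Mcm6 fell (−0.58). Leaving out scramble replicate 2 or 3, or shRNA replicate 1 or 2, left 4 proliferation genes that rose, and Mcm6 was lost without 5 of the 6 arrays. In whole cultures, more cells of 1 kind and more RNA per cell cannot be told apart, and the part of these markers in the rise of the contractile genes was not tested.

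**Figure D3:**
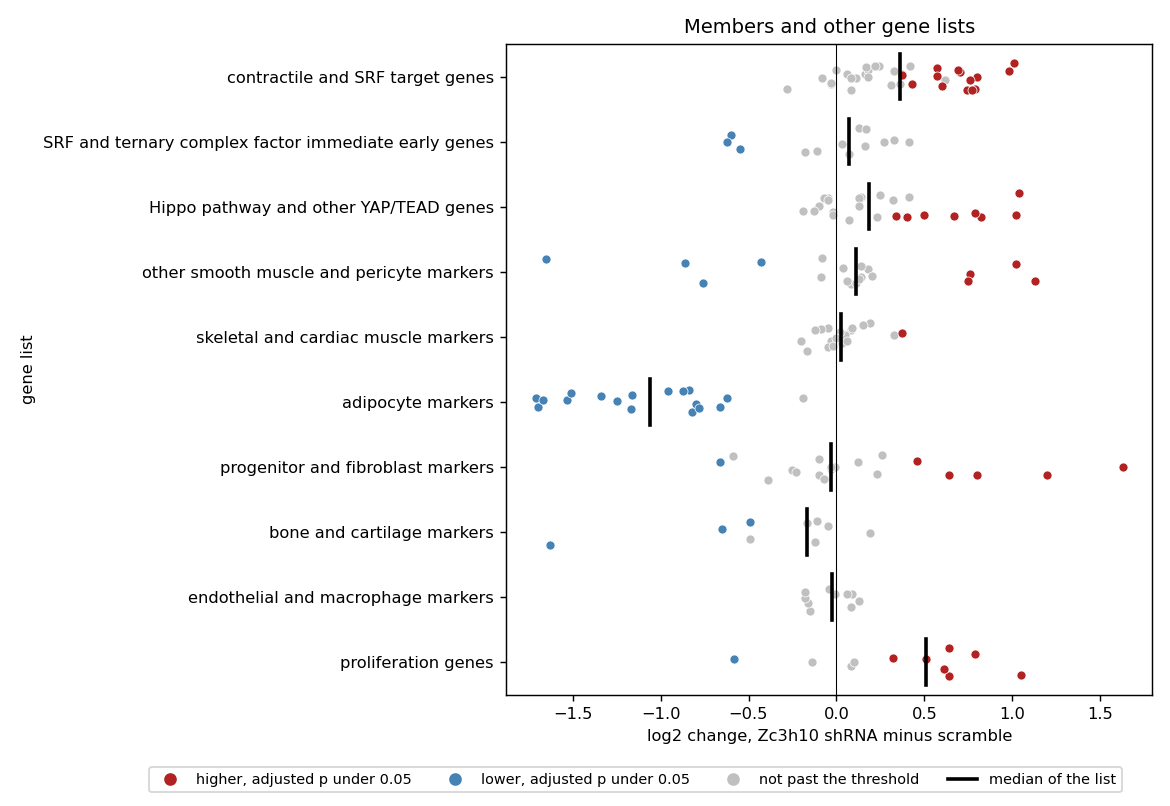
Log2 change, Zc3h10 shRNA minus scramble (x axis), of each measured gene in the contractile and SRF target genes and in 9 other lists. Red genes rose and blue genes fell at an adjusted p under 0.05, grey genes did not pass, and black bars are list medians. The median is 0.36 for the members, 0.07 for the immediate early genes and −1.06 for the adipocyte markers.

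The firmest calls were those of Acta2, Myl9, Myh9, Tagln, Cnn2, Pdlim5, Csrp1 and Ccn1. These 8 of the 14 kept an adjusted p under 0.05 in all 6 fits with 1 array left out. Acta2 and Csrp1 were lost with the ordinary t statistic (adjusted p = 0.0515 and 0.0519), and the other 6 of these passed in every alternative run. Within the scramble group, replicate 1 was the highest array for 19 of 35 members and replicate 2 the lowest for 20. No array of the shRNA group was highest for more than 13.

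**Figure D4:**
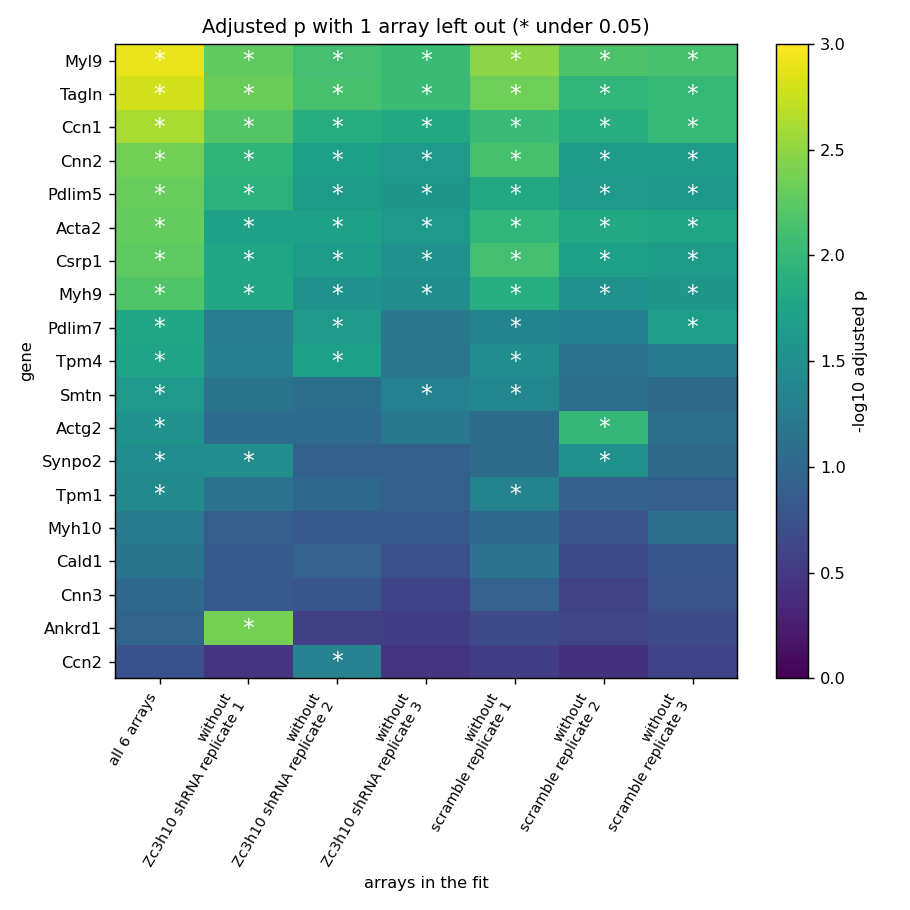
Adjusted p of the 14 members past the threshold and of 5 others (rows) in the limma fit with all 6 arrays and with 1 array left out (columns), as −log10, with an asterisk under 0.05. The top 8 rows carry an asterisk in every column, and the 6 below them lose it in 3 to 5 of the 6 fits with 1 array left out.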

How the data were processed

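The values were linear probe set intensities, used as deposited by the authors. The submitters' processing notes list Partek 6.6 and Affymetrix Expression Console. For background correction and normalization, the method is not stated in those notes. Dim probe sets depend on it most. Log2 was taken with no pseudocount or further scaling. All 33079 probe sets entered 1 two-sided fit without covariates (lmFit and eBayes of limma 3.58.1, R 4.3.3), with Benjamini-Hochberg adjustment over all of them and a threshold of 0.05. Genes were named from the platform annotation: 23043 probe sets had 1 symbol, 1740 several and 8296 none. Rock2 had no probe set with its symbol alone.

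The members and lists were chosen with earlier results of these data known. The 9 other lists hold 151 genes, of which 143 were measured. A further list is not reported here. Named were all members and, from each other list, up to 4 genes past the threshold with the smallest p. Other genes named, such as Egr1, Fos, Tead2, Fabp4, Pdgfra, Mcm6 and those listed as within background, were chosen after their values were seen. Alternatives were other scalings, an offset of 32 units, filters on dim probe sets, other variance priors, a replicate block, the mean of a gene's probe sets, and leaving out each array. The fit was tested on simulated data. Promoter windows and chromosome positions are RefSeq's.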

Additional observations from a re-analysis of the deposited data

How the results depend on the processing

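The count of members that rose, 14, was 13 to 17 under quantile, median and cyclic loess scaling, the offset of 32 units, both filters on dim probe sets, the intensity trend, the replicate block and the mean of a gene's probe sets. It was 6 with the ordinary t statistic, and 9 to 12 with 1 array left out. No member fell under any setting, and the median log2 change of the members stayed above 0 in all of them. Myh10, Cald1 and Cnn3 were the members gained under other settings with all arrays. Signs changed only for members near 0: Tagln2 (0.00 with quantile scaling), Lmod1 (−0.02 with equal medians, 0.00 with cyclic loess, −0.04 to 0.05 with 1 array left out), Mylk (−0.02 to 0.16), Csrp2 (−0.06 to 0.01) and Myh11 (−0.16 to 0.06). Same-numbered arrays did not deviate together (r = 0.0845, −0.00464 and 0.0425), so the numbers are not taken as pairs; with the replicate block 13 members rose, without Tpm1. In the other lists, the ordinary t statistic left 3 of the 7 proliferation genes and 2 of the 4 smooth muscle and pericyte markers that rose, 2 of the 4 of the same markers that fell, and 1 of the 3 bone and cartilage markers. Of the immediate early genes 1 or 2 rose with the offset, the median filter or the trend. For dim members the deposited background correction could not be varied.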
